A study of Mus musculus with 12 samples.

Results

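The genes described here are 10 genes of fat cell hormones and of the receptors for adiponectin, namely Adipoq, Retn, Cfd, Lep, Rbp4, Apln, Nampt, Nrg4, Adipor1 and Adipor2. They were taken by gene symbol from the 48321 genes of the normalized count matrix, and all 10 symbols were found once. The matrix holds RNAseq of immortalized murine brown adipocytes, 12 libraries in 4 groups of 3. All cells came from brown preadipocytes of a WT C57BL/6J newborn mouse that were immortalized with the SV40 large T antigen, stably transduced with a pLEX lentivirus, selected with puromycin and differentiated over 8 days, first in a cocktail that included rosiglitazone, an agonist of PPARγ, and then in medium with insulin and T3. The vector groups carried the empty pLEX virus, and the tSema4B groups carried a truncated, soluble and Flag-tagged form of the mouse membrane protein Semaphorin 4B, a mimetic of its ectodomain after cleavage by the protease ADAM17. Each line was kept for 6 h in serum-free medium with albumin, either unstimulated or with 2 μM norepinephrine (NE), the transmitter through which sympathetic nerves drive heat production in brown fat. Each construct was studied in 1 line, and the series describes the 3 libraries of a group as technical replicates, so the p-values below measure the spread between these libraries and do not cover the variation between independently transduced lines.

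Adipokines are proteins that fat cells secrete into blood or tissue and that act on other organs or on fat itself. Adiponectin, the product of Adipoq, is made almost entirely by differentiated fat cells and raises insulin sensitivity through the membrane receptors AdipoR1 and AdipoR2, which are linked to AMPK and to PPARα signalling. Brown fat cells make adiponectin, resistin and factor D as white fat cells do, make little leptin, and release factors such as neuregulin 4 when they are activated.

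The libraries held between 2000780 and 5409583 reads on genes, and in each condition every vector library was deeper than every tSema4B library. Reads on Sema4b, which do not separate the construct from the cell's own gene, made up 7.01% to 10.2% of the counts in the tSema4B libraries and 2.04% to 4.02% in the vector libraries. The cells had the defining transcripts of fat cells, with summed normalized counts of 10 fat cell markers of 40161 to 46795 in unstimulated vector cells, 7125 to 9867 in unstimulated tSema4B cells, 54259 to 65016 in vector cells with NE and 11017 to 12566 in tSema4B cells with NE. Of 10 brown fat cell markers, Ucp1, the uncoupling protein of brown fat, stood at a mean of 12.1 normalized counts in unstimulated vector cells and at 0 in unstimulated tSema4B cells, and at 276 and 62.9 with NE, and Dio2 had no read in any library. Of the 6 brown fat cell markers tested, 4 were called lower in tSema4B cells in each condition and 0 higher, with Ppargc1a at 0.41 and 0.36 on the log2 scale. With NE, 1 of the 6 was called higher in vector cells (median -0.12, Adrb3 lowest at -0.67) and 2 in tSema4B cells (median 0.57), and 0 lower. Of 12 preadipocyte and fibroblast markers, 3 were called higher in tSema4B cells without NE and 4 with NE, and 0 lower, and Thy1 was at -0.12 without and Vim at -0.01 with NE on the log2 scale. Their sums, which are led by Col1a1, Col1a2 and Col3a1, were 30044 to 30978 and 54679 to 63283 in unstimulated vector and tSema4B cells and 23339 to 26405 and 48187 to 52493 with NE. Sums of 8 markers each of macrophages, endothelium and skeletal muscle stayed between 4.34 and 59.6 normalized counts in all libraries, and Adgre1, Ptprc and Mrc1 of the macrophage list had no read. Of these lists 2, 1 and 2 markers passed the filter on low values. Csf1r and Cd14 of the macrophage list were called higher with NE in vector cells (2.43 and 1.29 on the log2 scale), and Csf1r (3.00) in tSema4B cells. Acta1 of the muscle list was called lower in tSema4B cells without NE (-3.23) and with NE, where it had no read in them, and the part of these in the values below was not tested. Mitochondrially encoded genes took 13.4% to 16.7% of the counts in vector libraries and 6.91% to 7.89% in tSema4B libraries, and the part of this in the values below was not tested. In bulk RNA of this kind, fewer fat cells in a well and less adipokine RNA in each fat cell cannot be told apart.

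**Figure D1:**
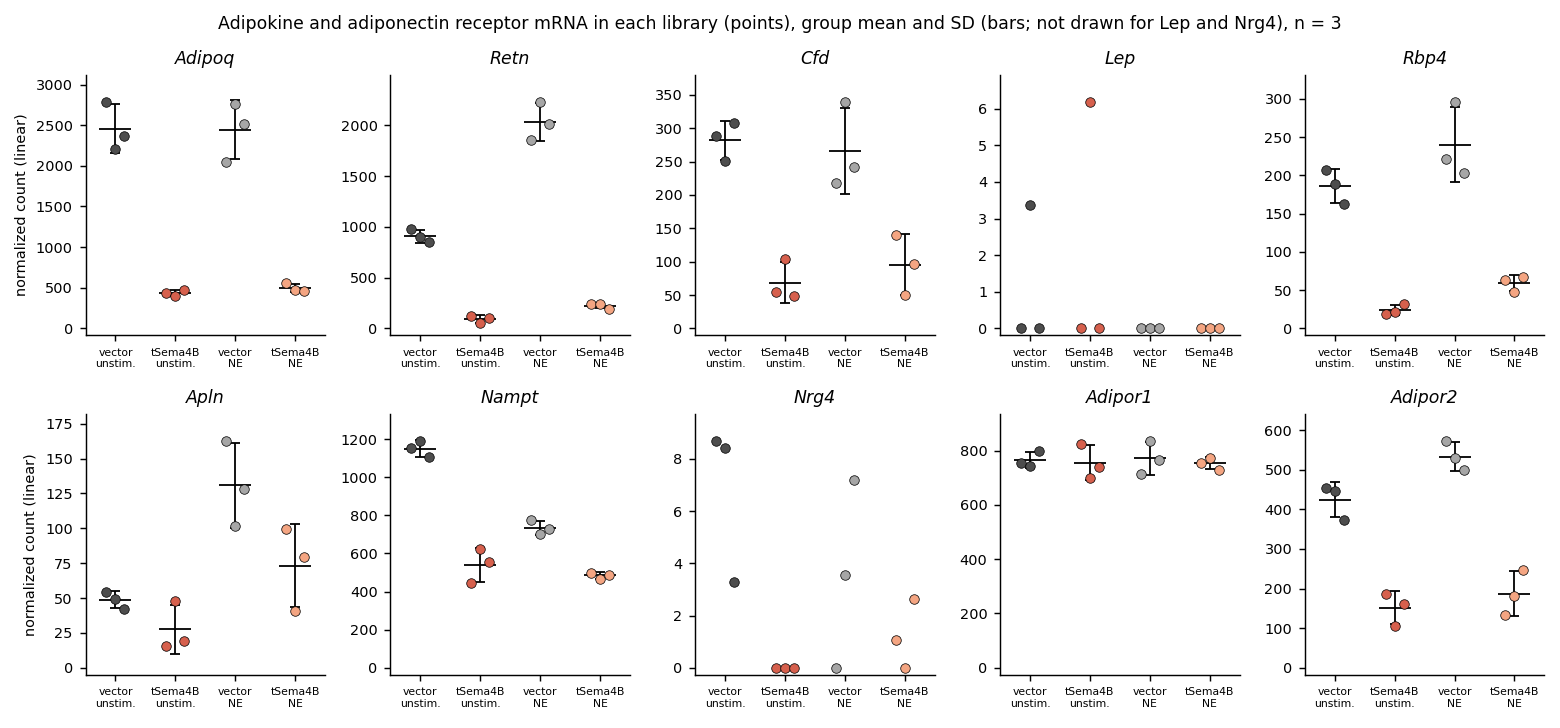
Normalized count (linear axis, read count divided by the library's size factor) of each of the 10 genes in each library, by group; points are libraries, and bars give the mean and SD of 3 libraries, with no bars for Lep and Nrg4. Adipoq, Retn, Cfd, Rbp4 and Adipor2 are lower in both tSema4B groups than in the vector groups, Adipor1 lies between 699 and 835 in every library, and Lep and Nrg4 stay below 9.

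Of the 10 genes, 8 had at least 10 normalized counts in all 12 libraries, the lowest single value being 15.5 for Apln, and all 8 were tested. Lep and Nrg4 reached 10 in none of the 12 and were not tested. Calls required an adjusted p of at most 0.05 together with a log2 fold change of 1 or more in either direction, and fold changes are on the scale of log2(normalized count + 1). In unstimulated cells 6 of the 8 were called lower in tSema4B than in vector cells and 0 higher, where 2.71% of all 11998 tested genes were called lower and 1.11% higher. With NE 5 of the 8 were called lower and 0 higher, against 3.73% and 2.03% of all tested genes. For the 0 called higher in each condition, limma gave 0 at an unadjusted p under 0.05, and edgeR and DESeq2 also called 0. The median log2 fold change of the 8 was -1.81 in unstimulated cells and -1.55 with NE, and that of all tested genes was -0.0025 and -0.010.

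**Figure D2:**
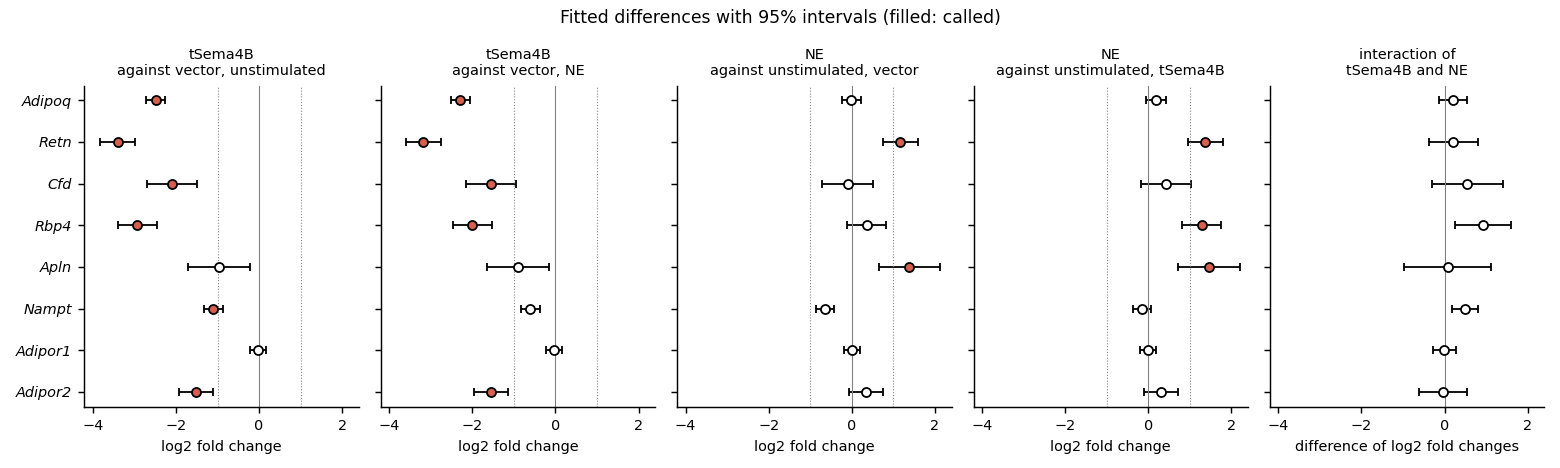
Log2 fold change (log2 of normalized count + 1) of the 8 tested genes in the 4 comparisons of 2 groups and, in the last panel, the difference of the 2 responses to NE; bars are 95% intervals, filled points were called, and dotted lines mark the fold threshold. In both tSema4B comparisons Adipoq, Retn, Cfd, Rbp4 and Adipor2 lie beyond the threshold on the lower side, while Adipor1 lies at -0.02 and -0.03.

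Adiponectin was the most abundant of the 10 per transcript length in each of the 4 groups by mean level and was about 5-fold lower in tSema4B cells. Adipoq (ENSMUSG00000022878.5, chr16:23146536-23158028, plus strand, GRCm38) measured 2789, 2212 and 2373 normalized counts in unstimulated vector cells and 430.3, 404 and 474 in unstimulated tSema4B cells. With NE it measured 2047, 2763 and 2519 in vector cells and 553, 477 and 462 in tSema4B cells. The highest of the 6 tSema4B values was thus well under the lowest of the 6 vector values. The fitted log2 fold change was -2.49 (SE 0.112, 95% interval -2.72 to -2.26, limma adjusted p = 5.83e-13) in unstimulated cells, a 5.61-fold lower level, and -2.29 (adjusted p = 2.72e-12) with NE, a 4.88-fold lower level. Its response to NE was small in either line, at -0.01 in vector cells (95% interval -0.25 to 0.22) and 0.19 in tSema4B cells (-0.04 to 0.42).

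Resistin, a cysteine-rich hormone that opposes insulin action in mice, had the largest difference between the lines among the 8 genes. Retn (ENSMUSG00000012705.16, chr8:3655770-3660110, plus strand) measured 975, 895 and 852 normalized counts in unstimulated vector cells against 122, 49.5 and 103 in unstimulated tSema4B cells, and 1854, 2232 and 2017 against 237, 239 and 196 with NE. It was also the member with the clearest rise on NE in both lines, with no overlap between unstimulated and stimulated libraries of a line. The tSema4B cells were 10.5-fold lower without NE (log2 fold change -3.39, SE 0.203, adjusted p = 9.10e-11) and 9.07-fold lower with NE (-3.18, adjusted p = 1.78e-10). NE raised Retn 2.24-fold in vector cells (1.16, adjusted p = 5.73e-04) and 2.59-fold in tSema4B cells (1.38, adjusted p = 1.51e-04). The latter fell just under the fold threshold, at 0.99, without the second unstimulated tSema4B library.

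Complement factor D, also called adipsin, is a serine protease of the alternative complement pathway that fat cells secrete in quantity. Cfd (ENSMUSG00000061780.6, chr10:79890853-79892655, plus strand) measured 288, 251 and 308 normalized counts in unstimulated vector cells and 54.8, 104 and 47.9 in unstimulated tSema4B cells. With NE the values were 218, 340 and 242 in vector cells and 140.5, 50.2 and 96.5 in tSema4B cells. The lines did not overlap in either condition, although Cfd spread more between tSema4B libraries than Adipoq did. Without NE, Cfd was 4.28-fold lower in the tSema4B line (-2.10 on the log2 scale, SE 0.291, adjusted p = 2.14e-05) and 2.95-fold lower with NE (-1.56, adjusted p = 5.16e-04). No response to NE was called, with 95% intervals of -0.71 to 0.50 in vector and -0.17 to 1.04 in tSema4B cells.

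Retinol-binding protein 4 carries vitamin A in the blood and is secreted by liver and fat. Rbp4 (ENSMUSG00000024990.13, chr19:38116629-38125281, minus strand) measured 207, 189 and 162 normalized counts in unstimulated vector cells and 19.1, 21.7 and 31.5 in unstimulated tSema4B cells, and 221, 296 and 204 against 63.3, 47.3 and 67.4 with NE. The difference between the lines was 7.59-fold without NE (log2 fold change -2.92, SE 0.228, adjusted p = 5.07e-09) and 3.99-fold with NE (-2.00, adjusted p = 1.58e-06). NE raised Rbp4 2.43-fold in tSema4B cells (1.28, adjusted p = 9.24e-04; 0.0675 when only the 6 libraries of that comparison were fitted, and 4.31e-04 to 0.0675 over all alternatives), and each stimulated tSema4B library exceeded each unstimulated one. In vector cells the value was 0.35 (95% interval -0.12 to 0.83) and was not called. The difference between these responses, 0.93 (SE 0.322, 95% interval 0.26 to 1.60), had an adjusted p of 0.301, so the response of Rbp4 was not shown to differ between the lines. Of the 10 fat cell markers, 2 were called higher with NE in tSema4B cells, Lpl (1.03) and Cidec (1.16), and 0 lower, with a median of 0.26 and Plin1 lowest at -0.64. The difference between the responses of the lines was called for Lpl (0.82, limma adjusted p = 0.00399) and not for Cidec (1.18, 0.143). The part of these markers in the Rbp4 value was not tested.

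The upstream sequence is shown for 3 tested secreted factors. Among those with 250-base windows wholly outside annotated exons, they had the largest fold decreases in tSema4B cells. All 3 were called lower in tSema4B cells in both conditions, while only Retn of them was called with NE. They were also chosen because their windows are poor in CpG, the dinucleotide C followed by G. Their low CpG counts were thus part of the choice. The bases are those just before the RefSeq transcription start (RefSeq, GRCm38.p6), 5′ to 3′ on the strand of the gene, at chr16:23146286-23146535 for Adipoq, chr8:3655520-3655769 for Retn and chr10:79890603-79890852 for Cfd. Capitals mark each CpG.
Adipoq: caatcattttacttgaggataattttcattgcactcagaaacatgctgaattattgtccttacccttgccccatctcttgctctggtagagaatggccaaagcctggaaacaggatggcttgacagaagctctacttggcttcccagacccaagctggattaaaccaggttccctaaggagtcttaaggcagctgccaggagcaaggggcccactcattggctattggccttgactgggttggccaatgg
Retn: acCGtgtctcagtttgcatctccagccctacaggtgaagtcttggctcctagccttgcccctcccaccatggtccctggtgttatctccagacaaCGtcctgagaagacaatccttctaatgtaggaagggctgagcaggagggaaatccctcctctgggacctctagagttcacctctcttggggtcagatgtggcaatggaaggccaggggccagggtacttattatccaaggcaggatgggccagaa
Cfd: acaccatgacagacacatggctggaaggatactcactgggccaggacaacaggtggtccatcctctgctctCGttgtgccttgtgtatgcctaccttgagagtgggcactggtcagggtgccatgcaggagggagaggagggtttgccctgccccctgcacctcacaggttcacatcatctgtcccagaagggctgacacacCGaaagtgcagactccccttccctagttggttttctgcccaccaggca
Adipoq had 0 CpG in this window, and Retn and Cfd had 2 each. Of 32851 such windows of mouse transcription starts, 29.0% held at most 2 and 7.87% none, with a median of 6. Rbp4 and Nampt, which were also called lower in unstimulated tSema4B cells, had 28 and 27, so a low CpG count was not shared by all genes that were called lower. Lep had 16, Apln 12 and Nrg4 10. The window of Rbp4 is not printed since 124 of its bases lie in annotated exons of longer transcripts.

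All 10 upstream windows were searched on both strands for the letters of 8 motifs. TATAAA, the TATA box, was found in 1 of 10, Rbp4, starting 28 bases before the start, and in 12.4% of all windows. TTNNGCAA, letters of the C/EBP type, was found in 2 of 10, Rbp4 and Lep, and in 9.56% of all windows. CCAAT occurred 3 times in Adipoq and once in Adipor1, and in 33.8% of all windows. TGACG, the core of the cAMP response element, was found in Rbp4, Nampt and Adipor2, and in 17.8% of all windows, while its full form TGACGTCA, which contains the core, was in none of the 10 and in 1.55% of all windows. CACGTG (6.02% of all windows), the direct repeat with a 1-base spacer to which PPARγ and RXR bind (0.338%), and TCACNCCAC, the sterol response element (1.05%), were in none of the 10. A match of letters describes the window and is not a binding site.

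Apelin, the ligand of the receptor APJ with effects on vessels and on insulin action, was lower than 170 normalized counts throughout and rose with NE in both lines. Apln (ENSMUSG00000037010.7, chrX:48025146-48034853, minus strand) measured 54.3, 49.6 and 42.5 normalized counts in unstimulated vector cells and 163, 101 and 128 with NE. In tSema4B cells it measured 15.5, 48.0 and 19.2 unstimulated and 99.7, 40.7 and 79.3 with NE. NE thus separated the vector libraries without overlap, while in tSema4B cells the second library of each group lay near the other and the groups overlapped. The log2 fold change with NE was 1.38 in vector cells (SE 0.357, adjusted p = 0.0133) and 1.46 in tSema4B cells (adjusted p = 0.0150). Both calls depend on single libraries through the adjusted p, while the log2 fold change stayed above the threshold, at 1.22 to 1.38 in vector and 1.15 to 1.46 in tSema4B cells in the fits that follow. The adjusted p in vector cells was 0.0555 without unstimulated library 3, 0.0737 without NE library 1 and 0.0535 without NE library 3, and ranged over the alternatives from 1.55e-04 to 0.0737. In tSema4B cells it was 0.0815 and 0.0630 without unstimulated library 1 or 3, 0.0751 and 0.0541 without NE library 1 or 3, and 0.106 in a fit of those 6 libraries only, with a range from 0.00109 to 0.106.

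Between the lines, Apln was not called. The log2 fold change was -0.97 in unstimulated cells (95% interval -1.71 to -0.23, adjusted p = 0.0793), where the groups overlapped, and -0.89 with NE (-1.64 to -0.15, adjusted p = 0.0802), where they did not. Without the second unstimulated tSema4B library, the high one, the first value was -1.44 (adjusted p = 0.00623), scaling to the same total of nuclear genes gave -1.05 (0.0484), and its adjusted p ranged over the alternatives up to 0.290. Without the first tSema4B library with NE the value with NE was -1.16 (adjusted p = 0.0392; range over the alternatives 0.0367 to 0.346).

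Nampt encodes the rate-limiting enzyme of the NAD salvage pathway and is also released from fat cells, where it has been called visfatin. Nampt (ENSMUSG00000020572.8, chr12:32819545-32853349, plus strand) measured 1155, 1191 and 1104 normalized counts in unstimulated vector cells and 446, 623 and 553 in unstimulated tSema4B cells. With NE it measured 775, 704 and 728 in vector cells and 499, 466 and 489 in tSema4B cells. Unstimulated vector cells therefore stood above the other 3 groups, and the tSema4B libraries were the lowest in both conditions. The log2 fold change between the lines was -1.10 (SE 0.107, adjusted p = 1.50e-07) without NE and -0.60 (SE 0.107, adjusted p = 3.21e-04) with NE, where it passed the adjusted p but not the fold threshold. Without the first unstimulated tSema4B library the former was -0.97, also under the fold threshold. In vector cells NE lowered Nampt by less than the fold threshold (-0.64, adjusted p = 3.48e-04), with no overlap, the only member to fall with NE by the adjusted p alone (1 of 8, against 4.78% of all tested genes). In tSema4B cells the value was -0.15 (95% interval -0.37 to 0.08). The difference between the responses was 0.50 (95% interval 0.18 to 0.81) with an adjusted p of 0.233, and was not called.

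Lep and Nrg4 were at the limit of detection. Leptin, the satiety hormone of mainly white fat, had 4 reads in 1 unstimulated vector library and 4 in 1 unstimulated tSema4B library and none in the remaining 10. Neuregulin 4, a secreted ligand of ErbB receptors that brown fat is known to release, measured 8.69, 8.41 and 3.27 normalized counts in unstimulated vector cells and 0 in all 3 unstimulated tSema4B libraries. With NE it measured 0, 3.56 and 7.20 in vector cells and 1.07, 0 and 2.64 in tSema4B cells, where the groups overlapped. The reads behind these values summed to 21, 0, 17 and 3 over the 4 groups in that order. Taking 3 reads per library, a mean of 4.11 normalized counts, as the upper limit that a count of 0 allows, the mean of Nrg4 was at least 1.65-fold lower in unstimulated tSema4B than in vector cells. This limit covers counting error in the tSema4B libraries only and takes the vector mean as exact, although 1 vector library, at 3.27, lay below 4.11. Without the count minimum, limma gave the difference between the unstimulated lines an adjusted p of 0.0295. Of the exon bases of Nrg4, 545 (8.97%) overlap genes on the opposite strand, 368 of them in Fbxo22, and a 176-base stretch matches Fbxo22 at 98.9%, so reads of these genes may not be separable. No other member shares exon bases with another gene or has such a copy.

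The 2 adiponectin receptors, membrane proteins with 7 passes that belong to the PAQR family, went apart. AdipoR1 is the form best known for its link to AMPK, and AdipoR2 the one best known for its link to PPARα. Adipor1 (ENSMUSG00000026457.14, chr1:134415378-134433351, plus strand) measured 754, 744 and 798 normalized counts in unstimulated vector cells and 826, 699 and 741 in unstimulated tSema4B cells, and 714, 835 and 765 against 755, 774 and 729 with NE. All 4 groups overlapped. The log2 fold change between the lines was -0.02 (95% interval -0.22 to 0.17) without NE and -0.03 (-0.23 to 0.16) with NE, so differences of more than 0.23 in size lay outside both intervals, and both signs turned, to 0.0034 and 0.063, when the libraries were scaled to the same total.

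Adipor2 (ENSMUSG00000030168.13, chr6:119353150-119417704, minus strand) measured 453, 446 and 374 normalized counts in unstimulated vector cells and 187, 105 and 162 in unstimulated tSema4B cells. With NE it measured 572, 529 and 498 in vector cells and 133, 182 and 247 in tSema4B cells. No tSema4B library reached the lowest vector library in either condition. The level was 2.86-fold lower without NE (log2 fold change -1.52, SE 0.195, adjusted p = 8.39e-06) and 2.92-fold lower with NE (-1.55, adjusted p = 5.67e-06). The response of Adipor2 to NE was 0.33 in vector cells (adjusted p = 0.321), where the stimulated libraries all exceeded the unstimulated ones, and 0.30 in tSema4B cells (adjusted p = 0.423).

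**Figure D3:**
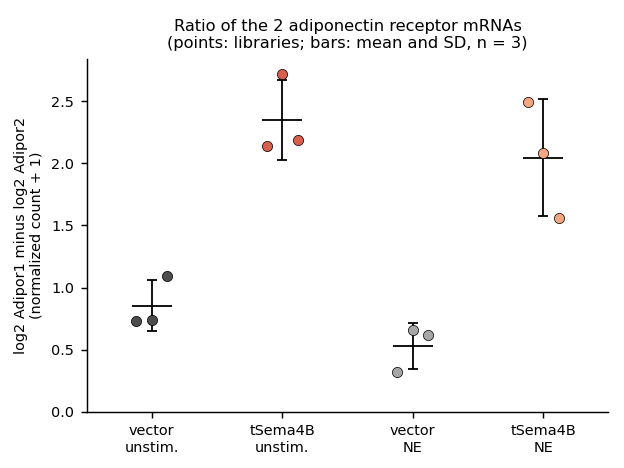
Difference of log2(normalized count + 1) of Adipor1 and Adipor2 in each library (points) with the mean and SD of each group of 3 libraries. The tSema4B libraries lie between 1.56 and 2.72 and the vector libraries between 0.317 and 1.09.

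Within each library, the log2 level of Adipor1 exceeded that of Adipor2 by 0.734, 0.738 and 1.09 in unstimulated vector cells and by 2.14, 2.72 and 2.19 in unstimulated tSema4B cells. With NE the difference was 0.317, 0.659 and 0.617 in vector cells and 2.50, 2.08 and 1.56 in tSema4B cells. Means were 2.35 ± 0.323 (SD, n = 3) in tSema4B against 0.855 ± 0.206 in vector cells without NE, and 2.05 ± 0.470 against 0.531 ± 0.186 with NE, which are differences of 1.49 and 1.51. The exact two-sided permutation test gave p = 0.1 in each condition, the smallest p that 3 against 3 libraries allow.

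The upstream windows of the receptors are shown for comparison with those of Adipoq, Retn and Cfd, again with each CpG in capitals (RefSeq, GRCm38.p6, 5′ to 3′ on the gene's strand). They lie at chr1:134415128-134415377 for Adipor1 and chr6:119388735-119388984 for Adipor2. The latter start is 48 bases from that of a principal transcript and lies inside the gene body of a longer one.
Adipor1: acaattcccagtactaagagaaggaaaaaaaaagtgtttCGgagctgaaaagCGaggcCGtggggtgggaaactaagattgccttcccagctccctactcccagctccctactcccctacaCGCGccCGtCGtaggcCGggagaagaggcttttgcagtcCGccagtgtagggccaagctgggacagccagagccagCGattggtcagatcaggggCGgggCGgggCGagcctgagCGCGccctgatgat
Adipor2: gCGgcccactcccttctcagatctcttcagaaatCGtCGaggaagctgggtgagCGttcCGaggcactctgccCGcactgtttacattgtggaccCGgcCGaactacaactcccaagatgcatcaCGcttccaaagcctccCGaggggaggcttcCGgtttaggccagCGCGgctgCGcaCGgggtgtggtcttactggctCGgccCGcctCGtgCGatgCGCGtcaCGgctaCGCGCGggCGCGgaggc
Adipor1 had 15 CpG and Adipor2 27, a number reached by 8.56% of all windows.

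NE changed fewer of these genes than tSema4B did. In vector cells Retn and Apln were called higher with NE, 2 of 8, where 1.66% of all tested genes were called higher. None was called lower (0 of 8; 1 at an unadjusted p under 0.05 by limma, and 0 by edgeR and by DESeq2), where 0.975% of all were. In tSema4B cells Retn, Rbp4 and Apln were called higher, 3 of 8, against 1.31% of all tested genes, and 0 lower, with 0 at an unadjusted p under 0.05 and 0 by edgeR and DESeq2, against 0.758%. The stimulated and unstimulated libraries did not overlap for 3 genes that were higher (17.6% of all tested genes) and 1 that was lower (15.7%) in vector cells, and for 2 that were higher (11% of all) in tSema4B cells. The same count between the lines was 6 lower without NE (15.1% of all) and 7 lower with NE (19.8% of all). The test of whether the NE response differs between the lines called 0 of the 8 by limma, edgeR and DESeq2. By limma, 2 were at an unadjusted p under 0.05, Rbp4 and Nampt. Of all genes the test called 3 by limma (0.025%), 4 by edgeR and 101 by DESeq2. The comparisons share groups, so their counts are not independent.

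Per kilobase of the principal transcript, the order of the genes differed between the lines. This scaling covers transcript length and no other difference between genes. In unstimulated vector cells Adipoq (1902 normalized counts per kb) was followed by Retn (797), Cfd (306), Nampt (254), Adipor1 (222), Rbp4 (199), Adipor2 (101), Apln (15.5), Nrg4 (3.52) and Lep (0.344), and of the neighbours with mean levels above 10 per kb only Adipor1 and Rbp4 overlapped. In unstimulated tSema4B cells Adipor1 (219 per kb) stood second to Adipoq (337), ahead of Nampt (119), Retn (80.1), Cfd (74.6), Adipor2 (36.2), Rbp4 (25.7) and Apln (8.75). The ranges of Nampt, Retn and Cfd overlapped each other, and that of Adipor2 overlapped those of Retn and Rbp4. With NE, Retn (1786 per kb) came up to Adipoq (1891) in vector cells and the 2 overlapped. In tSema4B cells with NE the order was Adipoq (385 per kb), Adipor1 (218), Retn (196), Nampt (107), Cfd (104), Rbp4 (63.3), Adipor2 (44.8) and Apln (23.3), with overlap between neighbours from Nampt to Adipor2. By the length of all annotated exons, Retn and Cfd changed places in unstimulated tSema4B cells, and Nampt and Cfd in tSema4B cells with NE.

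**Figure D4:**
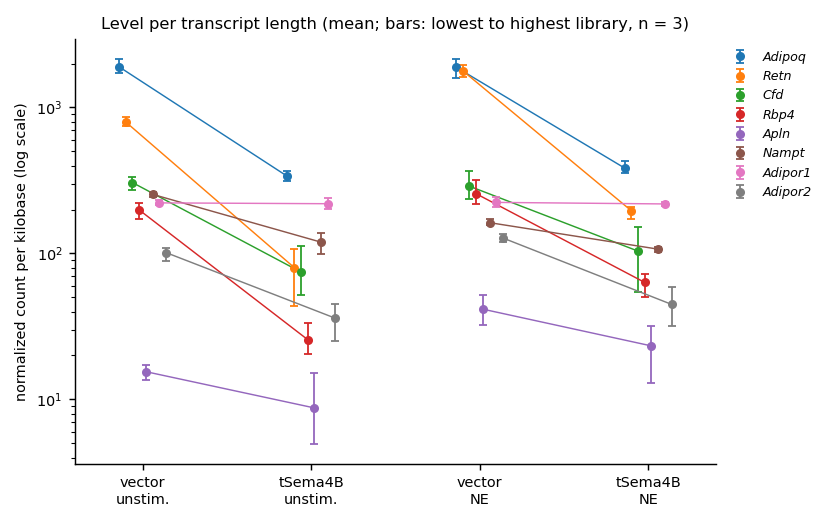
Normalized count per kilobase of the principal transcript (log axis) of the 8 tested genes by group; points are means, bars run from the lowest to the highest of 3 libraries, and lines join the vector and tSema4B groups of a condition. Adipoq falls from 1902 to 337 and Retn from 797 to 80.1 without NE, while Adipor1 stays at 222 and 219.

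With reads thinned to the depth of the shallowest library, the counts of members called were 6 and 5 lower between the lines and 2 and 3 higher with NE, as at full depth.

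The 10 genes together took 0.192% to 0.217% of all normalized counts in unstimulated vector libraries and 0.0666% to 0.0702% in unstimulated tSema4B libraries, and 0.206% to 0.243% against 0.0764% to 0.0833% with NE. Adipoq gave 36.9% to 41.7% of that sum in unstimulated vector cells and 19.6% to 22.2% in unstimulated tSema4B cells, and 31.2% to 35.4% against 19.5% to 22.3% with NE.

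Fat cell markers were lower in tSema4B cells beside the adipokines. Of 10 fat cell markers, all 10 were called lower without NE (median log2 fold change -2.21) and 9 with NE (-1.56), the exception being Dgat2, a triglyceride synthesis enzyme, at -0.99. To set the members against these markers, the log2 level of each tested member except Apln was taken relative to the summed markers of the same library. On that scale Adipoq differed between tSema4B and vector cells by -0.13 without and 0.03 with NE, with overlapping groups. Retn stayed lower, by -1.04 and -0.86, without overlap. Cfd differed by 0.26 and 0.76, with overlap. Rbp4 differed by -0.57 without overlap and by 0.32 with NE, with overlap. Nampt (1.26 and 1.72), Adipor2 (0.84 and 0.77) and Adipor1 (2.34 and 2.29) were higher relative to the markers in tSema4B cells, without overlap. The summed markers were themselves lower in tSema4B cells, so a gene that fell less than the sum is higher on this scale. Before this scaling Adipor1 was at -0.02 and -0.03, Nampt at -1.10 and -0.60 and Adipor2 at -1.52 and -1.55. The share of all tested genes without overlap on this scale was not computed. The sum is led by Fabp4, Cd36 and Lpl, and single markers differed, with Lpl at -1.11 and Lipe at -1.06 between the lines with NE, less than Adipor2 at -1.55. These relative values therefore hold for the sum alone and were not tested further.

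Some regulators of adipokine genes in fat cells were lower too. Of 12 such regulators, 5 were called lower in unstimulated tSema4B cells, namely Pparg, the master regulator of fat cell differentiation (-1.84), its partner Rxra (-1.10), Cebpa (-2.52), Klf15 (-1.76) and Ebf2 (-2.87), and 0 higher. Cebpd was at 0.76 in that comparison (limma adjusted p = 0.00195) and Cebpb at 0.13. With NE 4 were lower, Pparg (-1.56), Cebpa (-1.93), Klf15 (-1.40) and Ebf2 (-2.49), and Rxra was at -0.34. In vector cells NE raised Cebpb (1.22) and Cebpd (1.35), factors of early fat cell differentiation and stress responses, and in tSema4B cells they were at 0.59 and 0.92, of which Cebpd passed the adjusted p (6.85e-04 by limma) but not the fold threshold. The difference between these responses had adjusted p-values of 0.651 and 0.535, so neither was shown to differ between the lines. The median of the 12 with NE was -0.30 in vector and 0.05 in tSema4B cells, and by the adjusted p alone Pparg (-0.71) and Ebf1 (-0.54) were lower in vector cells and Ebf1 (-0.68) in tSema4B cells. Between the lines, the medians of the list were -0.86 without and -0.69 with NE. Pparg and Cebpa also stand in the list of fat cell markers.

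The genes that fold and export adiponectin and those that carry its signal were not called in any comparison. Neither Erp44, Ero1l (Ero1a) nor the other 8 genes of adiponectin assembly and secretion passed the thresholds (0 of 10; medians 0.03 and 0.25 for tSema4B against vector cells without and with NE). By adjusted p alone, 2 of the 10 were higher in tSema4B cells in each condition, among them P4hb, a protein disulfide isomerase, at 0.25 and 0.32, where 5.64% and 9.79% of all tested genes were higher by that rule. Of 17 tested genes of adiponectin signalling, including Appl1, the adaptor that binds both receptors, and the AMPK subunits, 0 were called (medians -0.09 and 0.12). Asah1, an acid ceramidase, was higher by adjusted p alone (0.51, adjusted p = 0.00145 by limma, and 0.58). Acer2, another ceramidase, went the other way at -1.88 and -1.62 and did not pass the limma adjusted p (0.0630 and 0.0847). Ppara was not tested, with 17 and 36 reads in vector cells without and with NE and 0 and 3 in tSema4B cells. Cdh13, the T-cadherin that binds adiponectin, had no read in any library. Of 5 tested relatives of the receptors in the PAQR family, Paqr9 was called lower in both conditions (-1.86 and -1.79).

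Other secreted factors of fat cells were also among the genes called. Of 3 tested C1q/TNF-related proteins, the paralogues of adiponectin, C1qtnf6 was called higher with NE (1.01), with 0.91 without NE. Of 16 other tested secreted factors, 4 were lower in tSema4B cells in both conditions and 1 was higher, where 2.71% and 3.73% of all tested genes were called lower without and with NE. Agt, angiotensinogen, was at -2.19 and -2.22, Angptl4, an inhibitor of lipoprotein lipase, at -1.85 and -2.37, Lcn2, lipocalin 2, at -1.21 and -1.20, and Wfdc21 at -3.55 and -2.37. Slit2, a guidance protein of which brown fat secretes a fragment, was higher at 1.17 and 1.01. NE raised Il6 (3.97 in vector and 2.99 in tSema4B cells) and Saa3 (1.21 and 1.02), both known to respond to inflammatory signals, the latter from a family of close copies. Without NE, Il6 was near 0, at means of 1.82 normalized counts in vector and 2.62 in tSema4B cells. It passed the filter on low values through its NE libraries. Wfdc21 had a mean of 0.516 in unstimulated tSema4B cells. The size of these log2 values thus depends on the pseudocount. Medians of this list were -0.37 and -0.45 between the lines.

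Partners of the remaining members changed in single genes. Of 14 tested genes of NAD synthesis and use, Nmnat2 was higher (1.07) and Naprt lower (-1.62) in unstimulated tSema4B cells, and Nnmt, which consumes nicotinamide, the substrate of Nampt, was lower with NE (-1.29). NE raised Nmnat2 in both lines (1.90 and 1.80) and Nnmt in vector cells (1.60). Nnmt was at 0.83 in tSema4B cells, which passed the adjusted p (0.00454 by limma) but not the fold threshold. The difference between the responses of Nnmt, -0.77, had a limma adjusted p of 0.257 and was not called. Of 8 tested apelin and retinol partners, Aldh1a7, a close copy of Aldh1a1 with which its reads may be shared, was lower in unstimulated tSema4B cells (-1.23), and NE raised Rdh10, a retinol dehydrogenase (1.13 in vector and 1.31 in tSema4B cells). Of 5 tested receptors for the secreted members 0 were called between the lines or with NE, and Lepr, Aplnr, Erbb4 and Stra6 did not reach the count minimum.

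The genes most like each member were those with the highest Pearson r of log2 levels over the 12 libraries, among genes with a mean of at least 50 normalized counts. The 12 values fall into the 4 groups, so r mainly follows the group differences, and it is given as a description. Tspo, Chchd10 and Fam213a were most like Adipoq (r = 0.985 to 0.984), and Arxes2, Uqcrfs1 and Hsd17b12 most like Retn (0.990 to 0.985). Acat1 and Cebpa led for Cfd (0.936 and 0.935), Aldoa and Lpl for Rbp4 (0.985 and 0.981), Serp1 and Tfrc for Apln (0.928 and 0.924), and Raph1 and Retsat for Adipor2 (0.976 and 0.975). Mocs1 was among the genes most like Nampt (0.970). Adipor1 had no close match (Sft2d1, 0.859), and its r with the other 7 tested members lay between -0.25 and 0.29.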

How the data were processed

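RNAseq values of 12 libraries, 3 in each of 4 groups assigned from the labels, were used. The authors screened reads with FastQ Screen, aligned them with STAR 2.7.9a to mm10 (GRCm38.p4), counted them with htseq-count and divided them by DESeq2 size factors, so the deposited signal is a gene's read count scaled for library size. The annotation and strand setting are not given in the sources used here. Every non-zero value was a whole multiple of the value of 1 read (100% within 0.01), so reads were recovered.

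Tests used limma 3.58.1 in R 4.3.3 on log2(normalized count + 1), with a variance trend, 1 model of all 4 groups, a filter of 10 or more normalized counts in 3 or more libraries (11998 genes), and Benjamini-Hochberg adjustment, two-sided. edgeR 4.0.16 and DESeq2 1.42.0 ran on recovered reads as alternatives, beside other pseudocounts, filters, scalings, fewer libraries and a replicate block; thinning reads to 2000780 was added after the data were seen. Methods were tested on simulated data. The 10 genes and all lists were chosen with earlier results of these data known. The named genes are the members, their 3 most alike genes, markers that define a cell type and the called list genes with the largest changes; P4hb, Asah1, Dgat2, Cdh13 and other list genes that were not called were named after their values were seen. Positions come from GENCODE M21 (GRCm38). Same-numbered libraries did not deviate together (18 pairs, r from -0.047 to 0.028). Some list genes and alike genes are not reported here.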

Additional observations from a re-analysis of the deposited data

How the results depend on the processing

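The differences between tSema4B and vector cells of Adipoq, Retn, Cfd, Rbp4 and Adipor2 kept their direction and their call under every alternative run, in both conditions. With each library left out in turn, 5 to 7 members were called lower in tSema4B cells without NE and 5 to 6 with NE, and 1 to 2 and 2 to 3 were called higher with NE in vector and tSema4B cells. With the adjusted p alone, 1 member, Nampt, was lower with NE in vector cells. With only the 6 libraries compared, 1 member, Retn, was higher with NE in tSema4B cells. With the replicate number as a block, the counts were 6, 5, 2 and 3, as without it, and no member's call changed. The causes were not tested. The Adipor1 to Adipor2 log2 ratio was 1.49 higher in tSema4B cells without NE and 1.51 with NE, and 1.31 to 1.61 and 1.29 to 1.76 with each library left out in turn.

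Log2 values near 0 changed sign. For Adipor1, in the order tSema4B against vector without NE, with NE, NE in vector, NE in tSema4B and interaction, scaling to the same total gave 0.0034, 0.063, -0.036, 0.023 and 0.059. For its last 3, scaling to nuclear genes gave -0.0077, 0.018 and 0.026. Quantile normalization gave 0.0041, 0.030, -0.077 and 0.026 for the first 3 and the interaction, and thinning gave 0.019 for NE in tSema4B cells and 0.013 for the interaction. The interaction of Adipor2 was 0.038, 0.0048 and 0.019 under these 3 scalings, and that of Apln -0.066 with a pseudocount of 10 and -0.078 after thinning. Over libraries left out, Adipor1 ranged from -0.088 to 0.032, -0.087 to 0.026, -0.050 to 0.063, -0.056 to 0.064 and -0.065 to 0.056 in the same order. NE in vector cells ranged from -0.11 to 0.11 for Adipoq and from -0.29 to 0.027 for Cfd, and the interaction from -0.24 to 0.55 for Apln, -0.27 to 0.19 for Adipor2 and -0.17 to 0.47 for Retn.

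Over all genes, the share of calls that were higher in tSema4B cells with NE was 35.3%, and 48.9% with libraries scaled to the same total. With a pseudocount of 10 the genes called higher there numbered 138 and not 244, and those called lower with NE in vector cells 68 and not 117 (77 without a filter). Those called lower with NE in tSema4B cells numbered 91, 59 with a filter at 50 and 50 with only the 6 libraries compared. The adjusted p alone gave 677 higher and 887 lower between the lines without NE, 1175 and 1342 with NE, and 818 and 574 for NE in vector and 441 and 309 in tSema4B cells, against 133 and 325, 244 and 447, 199 and 117, and 157 and 91. The interaction called 3 genes in limma, 0 without a filter, 101 in DESeq2, 4 in edgeR, and 1 to 31 with a library left out. With 3 technical libraries a group and 2000780 to 5409583 reads, Lep and Nrg4 could not be compared beyond the limits given.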
